A study of Homo sapiens with 16 samples.

Results

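The genes described here are the 7 that encode the sensors of double-stranded RNA, their shared adaptor, the kinase PKR and the RNA editor ADAR: RIGI (also written DDX58), IFIH1, DHX58, TLR3, MAVS, EIF2AK2 and ADAR. They were taken by symbol from 60669 genes, and all 7 were found in both deposited tables. The study sequenced HMC3, a human cell line labelled as microglial, either wild type or labelled knockout of METTL3, the gene for the catalytic subunit of the enzyme that writes N6-methyladenosine on RNA. No other treatment is named in the labels, and whether the knockout line is a single clone is not given in the sources used here. Of 16 libraries, 10 came from poly(A) RNA by Smart-seq2 (5 per genotype) and 6 from RNA depleted of ribosomal RNA (3 per genotype). Nothing in the labels says that replicates came from separate cultures, so p-values measure the spread between these libraries, which may be technical.

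Long double-stranded RNA is rare in a healthy human cytoplasm and is read there as a sign of virus. RIG-I, encoded by RIGI, and MDA5, encoded by IFIH1, are helicases that bind it and signal through the mitochondrial protein MAVS to switch on interferon genes, while LGP2, encoded by DHX58, binds RNA but lacks the signalling domains. TLR3 reads double-stranded RNA in endosomes. PKR, encoded by EIF2AK2, stops translation by phosphorylating eIF2, and ADAR converts adenosine to inosine in paired RNA, which keeps the cell's own transcripts from setting off MDA5 and PKR. Most of these genes are themselves induced by interferon.

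In the rRNA-depleted libraries RIGI rose 13.3-fold and ADAR 4.48-fold in mean TPM in the libraries labelled knockout, while EIF2AK2 was 2.08-fold and MAVS 2.57-fold lower. The lower calls of EIF2AK2 and MAVS were each lost in a fit that removed a trend on repeated sequence, and kept in another. EIF2AK2 lost its call with that trend alone removed and kept it with the GC trend removed as well. MAVS kept its call with that trend alone removed and lost it with the GC trend removed as well. TPM, the unit of these libraries, is a gene's share of all transcripts after division by gene length. In the poly(A) libraries the authors' deposited table gave rises for RIGI, IFIH1, EIF2AK2 and ADAR and no change past the threshold for MAVS or TLR3. EIF2AK2 thus stood below wild type in one library type and above it in the other. Of the 7 genes 5 passed a filter of at least 1 TPM in at least 3 libraries, and of these 5, 2 were higher and 2 lower at a limma adjusted p under 0.05. Of all 14789 genes tested 35.3% were called, 22.9% higher and 12.4% lower, and among the 10459 with a mean of at least 5 reads 49.6% were called, 34.2% higher and 15.4% lower. The libraries of the 2 labels did not overlap for 4 of the 5 members, and for 58.4% of all genes tested. An adjusted p was given for 6 of the 7 in the authors' deposited table, where 4 passed 0.05 upwards and 0 downwards. Of all 14009 genes there 19.9% were called, 9.55% higher and 10.3% lower. The median log2 change in the rRNA-depleted libraries was 1.96 over the 5 genes and 0.41 over all genes tested. With 2 of the 5 called higher and 2 lower, that 1.96 is the value of IFIH1 alone. IFIH1 missed the threshold (limma adjusted p 0.221), so the median gives no direction for the 5. In the authors' deposited table the median was 1.02 over the 6 genes against 0.02 over all genes.

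A few facts of the whole series bear on these values. The rRNA-depleted libraries were shallow: whole reads recovered from TPM with gene lengths gave 262876 to 481259 reads per wild-type library and 504772 to 1247685 per knockout-labelled library, so depth went with the label. Knockout-labelled libraries 1 and 2 differed by about the sampling noise (chi-square per degree of freedom 1.02 over 10117 genes, p = 0.0687, against 1.16 to 1.54 for the other pairs of 1 label) and were counted as 1 sample, the mean of the pair. With gene lengths fitted from the data the chi-square test of this pair gave 1.03 over 11336 genes (p = 0.0117). A fit that kept every library separate is among the alternatives. METTL3 mRNA was 25.4 to 31.6 TPM in wild-type and 39.2 to 42.7 TPM in knockout-labelled libraries (log2 change 0.48, SE 0.19, limma adjusted p 0.106), so mRNA levels do not check the label and "the libraries labelled knockout" is meant throughout. The small nuclear RNA 7SK took 3.69% to 4.07% of TPM in the wild type and 14.4% to 15.7% in the libraries labelled knockout. Of all calls 64.8% were higher with TPM as deposited and 48.5% after median ratio scaling, which brought the median change of all genes from 0.41 to 0.11. Relative to that median of 0.41 the changes were 3.24 for RIGI, 1.76 for ADAR, 1.55 for IFIH1, -1.46 for EIF2AK2 and -1.76 for MAVS on the log2 scale. Of 13 microglia markers none passed the filter, and 10, among them AIF1, ITGAM, PTPRC, P2RY12, TMEM119, CX3CR1 and SPI1, were listed at 0 in all 6 libraries. Their summed level was 0 to 6.47 TPM in the wild type and 0.532 to 5.24 TPM in the libraries labelled knockout. Of 10 mesenchymal markers 7 passed the filter, and LUM was listed at 0 in all 6 libraries. The 10 summed to 11653 to 14076 TPM in the wild type and 5627 to 5729 TPM in the libraries labelled knockout. Such a sum rests mostly on its most abundant genes.

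**Figure D1:**
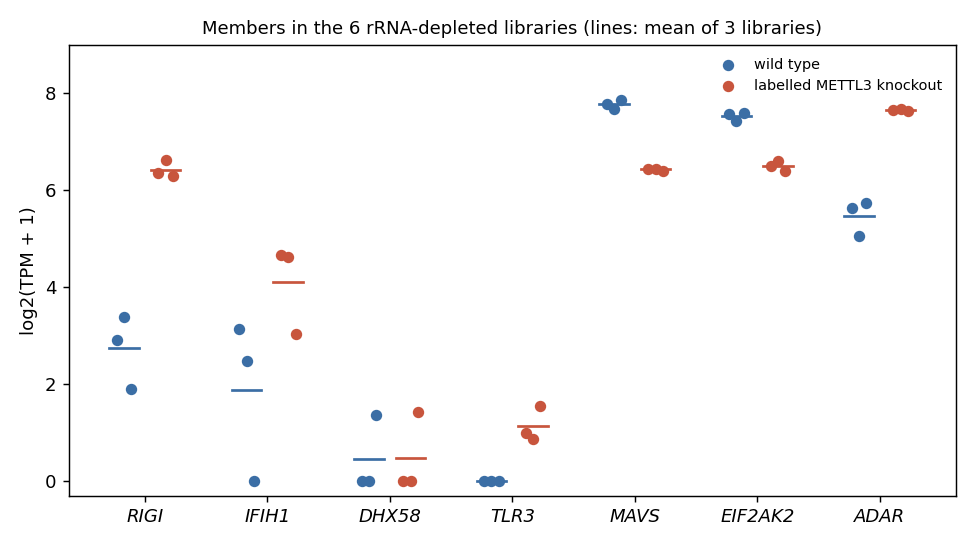
Level of each gene as log2(TPM + 1) in each rRNA-depleted library, blue for wild type and red for the libraries labelled knockout, with lines at the mean of 3 libraries. RIGI and ADAR lie higher and MAVS and EIF2AK2 lower in every knockout-labelled library, the IFIH1 groups overlap, and DHX58 and TLR3 stay near 0.

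The promoters show which of these genes carry letters of the interferon-stimulated response element, the site bound by interferon-activated transcription factors. The motif GAAANNGAAA was searched on both strands in windows from 250 bases before to 50 bases after each RefSeq start (GRCh38.p14), where 6 of the 7 genes had a window. EIF2AK2, IFIH1 and TLR3 held it, against 3.57% of all 35116 windows. RIGI, ADAR (3 starts) and MAVS did not hold these letters in their windows. A form with a single base between the repeats, GAAANGAAA, was searched after the RIGI window had been seen. It was found on the gene strand of RIGI, with its first base 203 bases before the start, and in 3.12% of all windows. Below, the matches that carry this comparison are in capitals. ADAR (the first of its starts) and MAVS are shown as members called in the rRNA-depleted libraries without a match of either form in their windows. Which ADAR start is inducible by interferon was not determined. TLR3 matches on the opposite strand, and all lines read 5′ to 3′ on the gene's strand.
RIGI, chr9:32526341-32526446, minus strand: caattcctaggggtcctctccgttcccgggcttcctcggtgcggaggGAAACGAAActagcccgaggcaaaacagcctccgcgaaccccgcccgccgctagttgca
IFIH1, chr2:162318676-162318765, minus strand: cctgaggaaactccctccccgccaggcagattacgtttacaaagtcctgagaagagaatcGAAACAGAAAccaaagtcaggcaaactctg
EIF2AK2, chr2:37156961-37157046, minus strand: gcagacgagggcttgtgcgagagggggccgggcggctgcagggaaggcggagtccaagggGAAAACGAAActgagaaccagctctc
TLR3, chr4:186069092-186069175, plus strand: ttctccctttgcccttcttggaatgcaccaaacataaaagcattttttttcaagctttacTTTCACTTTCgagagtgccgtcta
ADAR, chr1:154627998-154628097, minus strand: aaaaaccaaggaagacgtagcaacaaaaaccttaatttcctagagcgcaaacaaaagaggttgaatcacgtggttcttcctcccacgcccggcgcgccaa
MAVS, chr20:3846734-3846833, plus strand: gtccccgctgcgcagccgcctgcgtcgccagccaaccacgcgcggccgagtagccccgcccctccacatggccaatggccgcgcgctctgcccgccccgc
IFIH1 held 2 further, overlapping matches on the opposite strand, 159 and 153 bases before its start. Over all genes, 22.9% of 401 with a GAAANNGAAA match and 9.75% of 9991 without were higher at an adjusted p under 0.05 in the authors' deposited table, and 9.98% and 11.4% were lower. In the rRNA-depleted libraries the shares called higher by limma were 33.7% of 383 and 24.6% of 9815. These shares are given as a description, without a test.

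RIGI (ENSG00000107201; chromosome 9, 32455705 to 32526324, minus strand, 18 exon blocks; GENCODE 29 on GRCh38, as for the positions below) encodes the receptor that binds RNA with a 5′ triphosphate end. In wild-type libraries 1 to 3 its TPM was 6.51, 9.51 and 2.75, from 4, 4 and 2 reads. In those labelled knockout, 1 to 3, it was 80.8, 97.5 and 77.1, from 105, 155 and 52 reads. Every knockout-labelled library lay above every wild-type library. RIGI thus averaged 6.26 ± 3.39 TPM (SD, n = 3) without and 83.2 ± 8.52 TPM (SD, n = 2) with the knockout label. As log2(TPM + 1), a scale that makes changes of low genes look smaller, the difference was 3.66 (SE 0.49, limma adjusted p 0.00535). Since the wild type gave only 10 reads in all, the ratio of pooled reads per unit of depth was 15.4 with a 95% exact interval of 8.28 to 32.5, which covers counting error only. RIGI also rose in the authors' deposited table, by 2.33 on the log2 scale (SE 0.14, adjusted p 3.43e-61), from a mean normalized count of 139. In these bulk libraries a higher level in each cell and a larger share of cells with the RNA cannot be told apart, for this gene and those below.

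IFIH1 (ENSG00000115267; chromosome 2, 162267079 to 162318703, minus strand, 16 exon blocks) encodes MDA5, which binds long double-stranded RNA. Its TPM was 7.82, 4.57 and 0 in the wild type, from 5, 2 and 0 reads, the 0 allowing up to 3.97 TPM. Under the knockout label it was 24.4, 23.6 and 7.13, from 33, 39 and 5 reads. Knockout-labelled library 3 lay below wild-type library 1, so the groups overlap. The means of 4.13 ± 3.93 TPM (SD, n = 3) and 15.6 ± 11.9 TPM (SD, n = 2) differed by 1.96 on the log2 scale (SE 1.10), which missed the threshold (limma adjusted p 0.221). Without wild-type library 3 the log2 change was 1.02 (limma adjusted p 0.318), and with the replicate number as a block over 6 separate libraries it was 2.23 (limma adjusted p 0.0207). The ratio of pooled reads was 5.44 with a 95% exact interval of 2.52 to 13.99. That interval covers counting error only, not the spread between libraries. IFIH1 rose in the authors' deposited table by 2.84 on the log2 scale (SE 0.47, adjusted p 6.40e-08), from a mean normalized count of 16.3.

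DHX58 and TLR3 were too low to compare. DHX58 (ENSG00000108771; chromosome 17, 42101404 to 42112733, minus strand, 14 exon blocks), which encodes LGP2, held a single read in wild-type library 3 (1.56 TPM) and a single read in knockout-labelled library 3 (1.68 TPM) and was listed at 0 in the other 4 libraries. Where no read was seen, up to 3 reads cannot be told from none, for DHX58 5.53 and 8.08 TPM in wild-type libraries 1 and 2, and 2.62 and 2.14 TPM in the first pair labelled knockout. In the authors' deposited table DHX58 averaged 0.590 normalized counts and was given no adjusted p. TLR3 (ENSG00000164342; chromosome 4, 186069152 to 186088069, plus strand, 5 exon blocks), the endosomal receptor, was listed at 0 in the 3 wild-type libraries, where up to 3.16, 4.62 and 2.67 TPM are allowed. It had 2 reads in each knockout-labelled library, at 0.997, 0.815 and 1.92 TPM. Both groups are at or under 3 reads, so no fold is given. TLR3 missed the threshold in the authors' deposited table as well (log2 value 0.51, SE 0.38, adjusted p 0.382, mean normalized count 9.60).

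MAVS (ENSG00000088888; chromosome 20, 3846799 to 3876123, plus strand, 7 exon blocks) encodes the adaptor on mitochondria to which RIG-I and MDA5 both signal. Its TPM was 218, 202 and 232 in the wild type, from 363, 230 and 457 reads, and 86.0, 86.1 and 83.4 under the knockout label, from 302, 370 and 152 reads. The groups do not overlap, and the 3 knockout-labelled values lie close together. MAVS fell from an average of 218 ± 15.1 TPM (SD, n = 3) to one of 84.7 ± 1.88 TPM (SD, n = 2), by 1.35 on the log2 scale (SE 0.11, limma adjusted p 0.00188). With the trends on GC content and on repeated sequence removed from each library, the change of MAVS was -0.039 (limma adjusted p 0.859). With the trend on repeated sequence alone removed it was -0.65 (limma adjusted p 0.00873). The value in the authors' deposited table was -0.00033 (SE 0.15, adjusted p 0.9997), from a mean normalized count of 108.

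EIF2AK2 (ENSG00000055332; chromosome 2, 37099210 to 37157065, minus strand, 17 exon blocks) encodes PKR, the kinase that halts translation when it binds double-stranded RNA. Its TPM was 188, 170 and 191 in the wild type, from 286, 177 and 343 reads. Under the knockout label it was 89.1, 95.8 and 83.5, from 286, 376 and 139 reads. Each wild-type library lay above each knockout-labelled library. EIF2AK2 fell from an average of 183 ± 11.2 TPM (SD, n = 3) to one of 87.97 ± 6.35 TPM (SD, n = 2), by 1.05 on the log2 scale (SE 0.12, limma adjusted p 0.00342). Removing the trend on repeated sequence alone left EIF2AK2 at -0.35 (limma adjusted p 0.0579). With the GC trend removed as well, EIF2AK2 stood at -0.91 (limma adjusted p 0.00503). It rose in the authors' deposited table, by 1.26 (SE 0.09, adjusted p 5.86e-39), from a mean normalized count of 260. The difference between library types was not tested, since that table holds no value for a single library. Of 1327 genes called in both library types, 55 (4.14%) were, like EIF2AK2, lower in the rRNA-depleted libraries and higher in the authors' deposited table. GPATCH11, which overlaps the span of EIF2AK2 on the opposite strand, had 7.01 to 35.3 TPM (log2 change 1.08, limma adjusted p 0.107). The sources used here do not say if the counting was stranded, so the reads of EIF2AK2 and GPATCH11 may not be fully separated.

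ADAR (ENSG00000160710; chromosome 1, 154582057 to 154628013, minus strand, 17 exon blocks) encodes the main adenosine deaminase that edits double-stranded RNA. Its TPM was 48.3, 32.2 and 52.3 in the wild type, from 57, 26 and 73 reads, and 199, 202 and 196 under the knockout label, from 497, 617 and 254 reads. The knockout-labelled libraries all lay above the wild type and spread over only a few TPM. ADAR rose from an average of 44.3 ± 10.6 TPM (SD, n = 3) to one of 199 ± 3.18 TPM (SD, n = 2). On the log2 scale the rise was 2.17 (SE 0.23, limma adjusted p 0.00323), at the 90.2 percentile of all genes tested, where RIGI stood at the 98.3 percentile. ADAR rose by 0.77 in the authors' deposited table (SE 0.09, adjusted p 1.13e-14), from a mean normalized count of 532. The 2 isoforms that an interferon-inducible and a constitutive promoter are known to give were not separated, since the tables hold a value per gene.

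**Figure D2:**
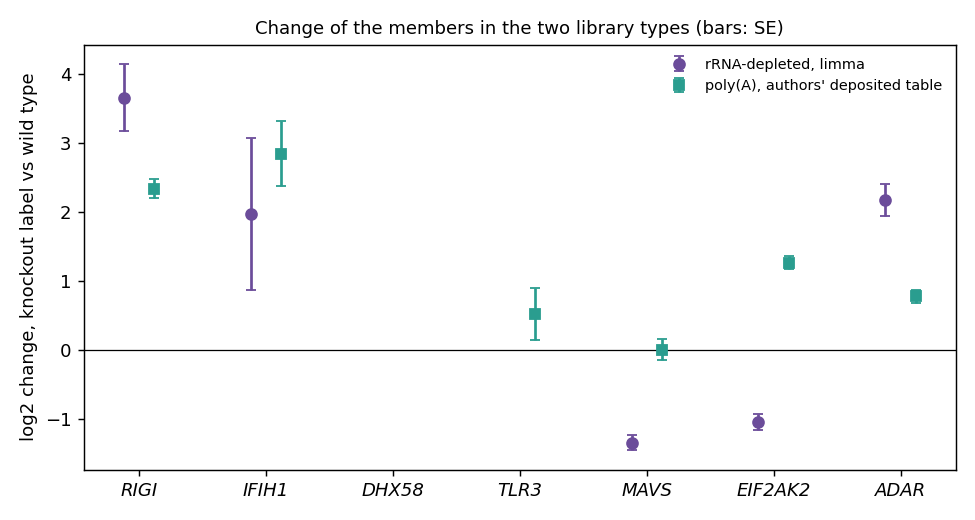
Log2 change in the libraries labelled knockout against wild type with its standard error, as circles from limma in the rRNA-depleted libraries and as squares from the authors' deposited table for the poly(A) libraries; DHX58 has neither and TLR3 no circle. RIGI, IFIH1 and ADAR lie above 0 in both, MAVS lies at -1.35 and near 0, and EIF2AK2 at -1.05 and 1.26.

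The order of the levels also differed between the labels. In the wild type MAVS (mean 218 TPM) stood above EIF2AK2 (183 TPM) and ADAR (44.3 TPM), with no overlap between neighbours, and RIGI, IFIH1, DHX58 and TLR3 followed with overlapping ranges from 0 to 9.51 TPM. In the libraries labelled knockout ADAR came first (199 TPM). EIF2AK2 (87.97 TPM), MAVS (84.7 TPM) and RIGI (83.2 TPM) followed, and the ranges of neighbours among these 3 overlapped. IFIH1 (15.6 TPM) lay below them without overlap. The ratio of ADAR to EIF2AK2 TPM, which no scaling of a library can change, was 0.256, 0.189 and 0.274 in the wild type and 2.24, 2.11 and 2.35 in the libraries labelled knockout. The ratio of MAVS to EIF2AK2 moved little by comparison, from 1.16 to 1.22 in the wild type and from 0.899 to 0.999 in the libraries labelled knockout, still without overlap.

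EIF2AK2 and MAVS, the members that fell, share a feature that RIGI, IFIH1 and ADAR lack: stretches of sequence that recur in many other transcripts. Human transcripts carry interspersed repeats such as Alu elements, and oppositely oriented copies in an RNA can pair into the double strands that ADAR edits. Words of 24 letters found in the longest transcripts of at least 100 genes (2441 words, either strand) covered 9.05% of the longest MAVS transcript and 6.10% of that of EIF2AK2. They covered 2.78% of TLR3 and 0% of RIGI, IFIH1, DHX58 and ADAR. Among 9867 protein-coding genes with a mean of at least 5 TPM, MAVS and EIF2AK2 stood at the 95.004 and 89.4 percentile of this share. To which repeat family the words belong was not determined. MAVS and EIF2AK2 also had the longest transcripts of the members, at 11714 and 10042 bases. Those of ADAR, RIGI and IFIH1 had 7112, 4353 and 3595 bases. Transcript length was not matched in the values below, and its part was not tested.

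Across those genes the change in the rRNA-depleted libraries moved with this share. The median log2 change was 0.59 for 6264 genes with none of these words, 0.75 for shares above 0 to 2%, 0.45 above 2 to 5%, 0.07 above 5 to 10% (993 genes) and -0.50 above 10% (399 genes). The share of genes called lower by limma was 11.3% with none of the words and 32.3% above 10%. In the authors' deposited table the same medians were -0.01, 0.09, 0.07, -0.03 and -0.09. At like GC content the step was present in the lower classes and small in the highest. In the lowest of 4 equal GC classes, which holds EIF2AK2 (38.7% GC), the median went from 1.48 with none of the words to 0.32 above 5 to 10% and -0.66 above 10%. In the third class, which holds MAVS (52.1% GC), it went from 0.48 to -0.18 and -0.41. In the highest it went from -0.18 with none of the words to -0.28 above 5 to 10% (116 genes) and -0.71 above 10% (34 genes). Genes are not independent replicates, and all these values rest on the same 6 libraries, so they are a description.

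Within their own class of shares (above 5 to 10%) EIF2AK2 lay at the 17.7 and MAVS at the 11.2 percentile of 993 genes. In a fit chosen once the data had been seen, with the trend on this share taken out of every library, EIF2AK2 had a log2 change of -0.35 (limma adjusted p 0.0579) and MAVS of -0.65 (limma adjusted p 0.00873). With the GC trend removed alone the values were -1.68 and -0.81, both past the limma threshold. With both trends removed they were -0.91 for EIF2AK2 (limma adjusted p 0.00503) and -0.039 for MAVS (limma adjusted p 0.859). RIGI and ADAR, at 2.86 and 2.07 with both removed, stayed past the threshold. The part of repeated sequence in the fall of EIF2AK2 and MAVS was not tested further.

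**Figure D3:**
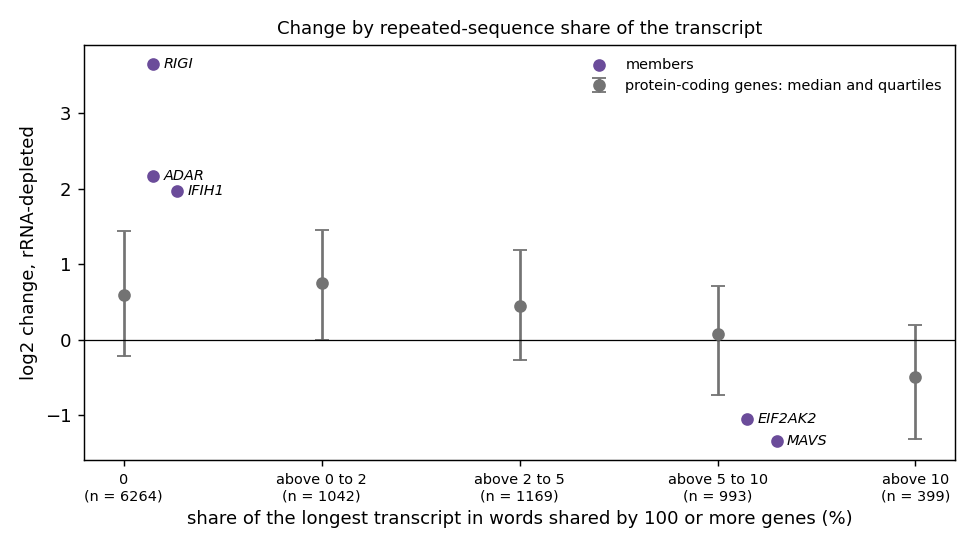
Log2 change in the rRNA-depleted libraries against the share of the longest transcript covered by recurring 24-letter words. Grey points and bars are the median and quartiles of protein-coding genes, falling from 0.59 to -0.50, and purple points are the members, with EIF2AK2 and MAVS in the class above 5 to 10% and the others at 0.

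**Figure D4:**
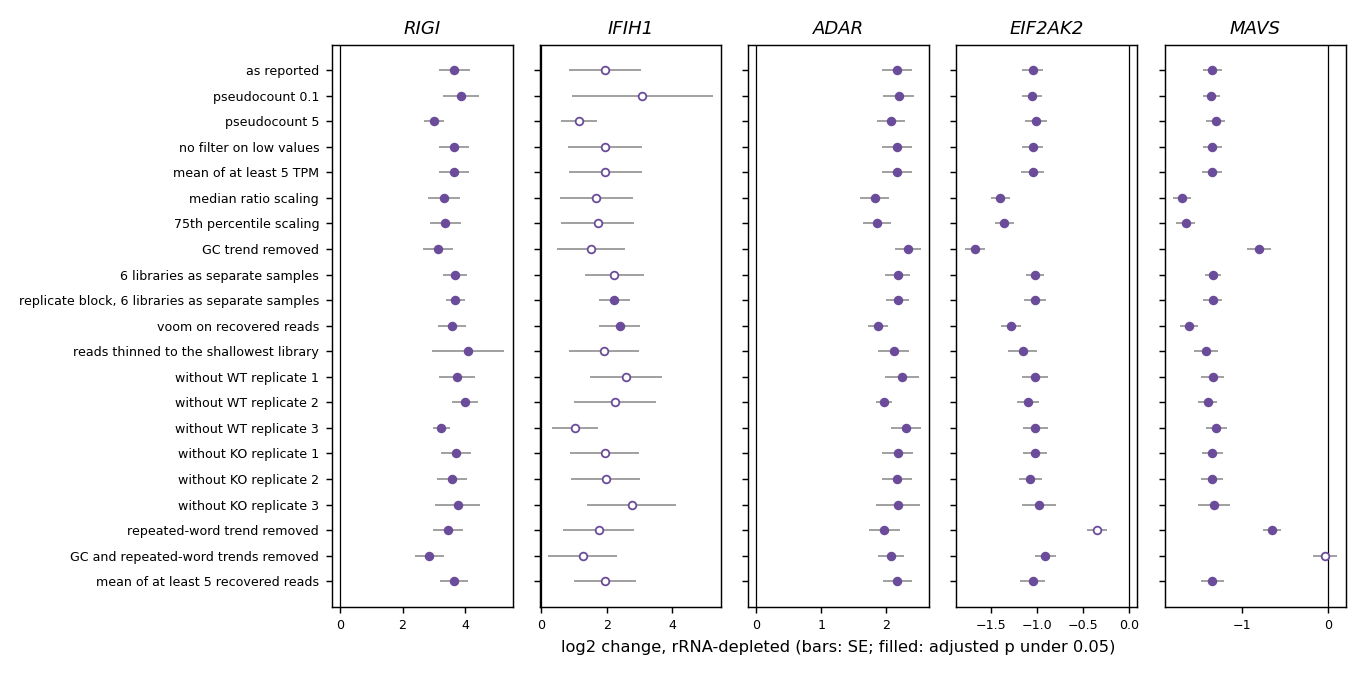
Log2 change of 5 members in the rRNA-depleted libraries as reported and under 20 other settings, with standard errors; filled points have an adjusted p under 0.05. RIGI and ADAR are filled in every row, EIF2AK2 and MAVS are each open in a single row that removes the trend on repeated words, and IFIH1 is filled in 2 rows.

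The genes with the most similar profiles were sought over the 6 rRNA-depleted libraries as the smallest Euclidean distance of centred log2(TPM + 1) values, among 11815 genes with a symbol and a mean of at least 5 TPM. RIGI was nearest to RPS27 (distance 0.31), NDUFA4 (0.63) and SF3B6 (0.73), whose log2 fold changes in the authors' deposited table were -0.61, -0.63 and -0.11, against 2.33 for RIGI. ADAR was nearest to ASXL2 (0.20), KIF18A (0.23) and CKAP5 (0.24), which rose by 0.52, 0.57 and 0.26 in the authors' deposited table, where ADAR rose by 0.77. EIF2AK2 was nearest to HSD17B1-AS1 (0.10), RPS6KA1 (0.12) and ISY1 (0.13), and MAVS to MCAM (0.12), KLHDC4 (0.12) and ZFYVE21 (0.13). Of these, MCAM fell by 0.66 in the authors' deposited table. HSD17B1-AS1 had a log2 value of -1.28 there without an adjusted p, and none of the others passed the threshold. IFIH1 had no close neighbour, the nearest being HIGD1A (1.03), PRTFDC1 (1.09) and C8orf88 (1.10), with 0.43, -0.26 and -0.91 in the authors' deposited table.

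Of 32 genes that carry or regulate the signal downstream of RIG-I and MDA5, 30 were tested in each library type. In the rRNA-depleted libraries 6 were higher and 3 lower by limma (median log2 change 0.44), against 6 higher and 1 lower in the authors' deposited table (median 0.18). In the rRNA-depleted libraries these counts are near the shares over all genes, 22.9% higher and 12.4% lower, and the median is near that of all genes, 0.41. TRIM25, a ubiquitin ligase that activates RIG-I, rose from a wild-type mean of 29.2 ± 4.398 TPM (SD, n = 3) to 91.6 ± 4.90 TPM (SD, n = 2), by 1.63 on the log2 scale, and by 0.65 in the authors' deposited table. DDX3X, a helicase that binds MAVS, rose by 2.27 in the rRNA-depleted libraries and had -0.08 in the authors' deposited table (adjusted p 0.368). IRF3, the transcription factor that MAVS signalling activates, fell from a wild-type mean of 104 ± 10.2 TPM (SD, n = 3) to 46.3 ± 1.86 TPM (SD, n = 2), by 1.14 on the log2 scale (limma adjusted p 0.00425), and had 0.29 in the authors' deposited table (adjusted p 0.295). With the GC and repeated-word trends removed IRF3 stood at -0.57 and missed the threshold. TRADD (-2.50) and ATG5 (2.09) passed on few reads and lost the limma threshold under 5 and 9 alternatives. TRAF6 rose by 0.68 and TRAF2 fell by 0.57 in the authors' deposited table. After median ratio scaling this list had 3 higher and 5 lower, and with the GC and repeated-word trends removed 6 higher and 0 lower, so no direction is given for it.

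Among the genes around PKR, 8 of 18 were higher and 2 lower in the rRNA-depleted libraries (median 0.93), and 1 higher and 4 lower in the authors' deposited table (median -0.13). Over all genes 22.9% were higher and 12.4% lower in the rRNA-depleted libraries (median 0.41), and 34.2% and 15.4% among those averaging 5 reads or more. In the authors' deposited table the shares over all genes were 9.55% higher and 10.3% lower (median 0.02). After median ratio scaling, and also without knockout-labelled library 3, the count in the rRNA-depleted libraries was 4 higher and 2 lower. EIF2S1, the eIF2 subunit that PKR phosphorylates, rose from a wild-type mean of 31.4 ± 0.333 TPM (SD, n = 3) to 123 ± 22.04 TPM (SD, n = 2). The rise was 1.92 on the log2 scale (limma adjusted p 0.00204). Each wild-type library gave at most 30 reads for EIF2S1, so the wild-type SD understates counting error. EIF2S1 fell by 0.29 in the authors' deposited table (adjusted p 1.56e-05). ATF4, the transcription factor made when eIF2 is phosphorylated, fell from a wild-type mean of 719 ± 104 TPM (SD, n = 3) to 209 ± 30.2 TPM (SD, n = 2), by 1.77 on the log2 scale (limma adjusted p 0.00254), and had -0.20 in the authors' deposited table (adjusted p 0.314). PPP1R15A, which recruits the phosphatase of eIF2, fell by 0.97 and had -0.12 in the authors' deposited table (adjusted p 0.420). DDIT3, of the same list but outside the rule for named genes, went the other way in the rRNA-depleted libraries. It rose by 1.86 (limma adjusted p 0.00458), from at most 5 reads in a wild-type library. In the authors' deposited table DDIT3 had -0.47 (adjusted p 0.102). EIF2AK1 (1.91), another eIF2 kinase, passed with a limma adjusted p of 0.0486 and lost the threshold under 11 alternatives. In the authors' deposited table EIF2AK4, the kinase that senses amino acid shortage, rose by 0.35, and EIF2B5 and EIF2S2 fell by 0.48 and 0.42.

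In the rRNA-depleted libraries 22.9% of all genes were higher (median 0.41), and 34.2% (median 0.48) of those averaging at least 5 reads. Of 13 other RNA helicases linked to sensing, all averaging at least 5 reads, 9 were higher and 0 lower there by limma (median 1.06). The higher count was 5 with the GC trend removed (median 0.51), 4 with the GC and repeated-word trends removed (median 0.25) and 5 without knockout-labelled library 3. In the authors' deposited table, 5 of the 13 were higher and 1 lower (median 0.17), where 9.55% and 10.3% of all genes were. DDX60, an interferon-induced helicase reported to assist RIG-I, had 0.861 ± 0.784 TPM (SD, n = 3), from at most 1 read in a wild-type library, and 14.2 ± 3.80 TPM (SD, n = 2). Its ratio of pooled reads was 21.5, with a 95% exact interval of 5.78 to 181 that covers counting error only. The limma call of DDX60 was lost under 2 alternatives, and DDX60 rose by 1.72 in the authors' deposited table (adjusted p 3.39e-15). ZNFX1, a helicase that binds double-stranded RNA at mitochondria, rose by 1.69 and by 0.89 in the authors' deposited table. DDX6 rose by 2.03 and by 0.70 in the authors' deposited table, where SKIC2 fell by 0.50.

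Of 19 other proteins that bind or edit double-stranded RNA, 15 were tested in each type. In the rRNA-depleted libraries 7 were higher and 0 lower (median 0.69), where 22.9% of all genes, and 34.2% of those with a mean of at least 5 reads, were higher. These 7 were led by DROSHA (2.12), the nuclease that starts microRNA processing, and CDKN2AIP (2.09), whose call was lost under 2 alternatives. The authors' deposited table had 2 that rose, STRBP (1.13) and ADARB1 (0.93), the second editing enzyme, and 2 that fell, STAU1 by 0.28 and ILF2 by 0.26. Of all genes there, 9.55% were higher and 10.3% lower. STRBP and ADARB1 are outside the rule for named genes and were picked with their values known. After median ratio scaling this list had 4 higher and 1 lower, and 3 were higher without knockout-labelled library 3 and also with the GC and repeated-word trends removed. Among the endosomal receptors and adaptors 8 of 12 were tested, with 1 higher and 2 lower in each library type. The shares over all genes were 22.9% higher and 12.4% lower in the rRNA-depleted libraries, and 9.55% and 10.3% in the authors' deposited table. The median of this list in the rRNA-depleted libraries was -0.63. It was 0.23 with the GC trend removed and -0.03 with the GC and repeated-word trends removed, so no direction is given for it. CNPY3, a chaperone of Toll-like receptors, fell by 1.25, and by 0.29 in the authors' deposited table. HSP90B1, also such a chaperone, rose by 0.69 in the rRNA-depleted libraries, a call lost under 4 alternatives, and fell by 0.19 in the authors' deposited table. IRAK1 (-0.45) took the opposite sign when the GC trend was removed. MYD88 rose by 0.81 in the authors' deposited table.

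The interferons and chemokines that this pathway switches on were nearly undetected. Of 11 such genes 9 were listed at 0 in all 6 rRNA-depleted libraries, among them IFNB1, CXCL10 and CXCL11. CCL5, picked with its values known, was the only one with an adjusted p in the authors' deposited table, where it rose by 3.27 (SE 0.57, adjusted p 4.64e-07) at a mean normalized count of 10.2. In the rRNA-depleted libraries CCL5 missed the threshold (log2 change 1.62, SE 0.90, limma adjusted p 0.216), from at most 4 reads in a library.

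**Figure D5:**
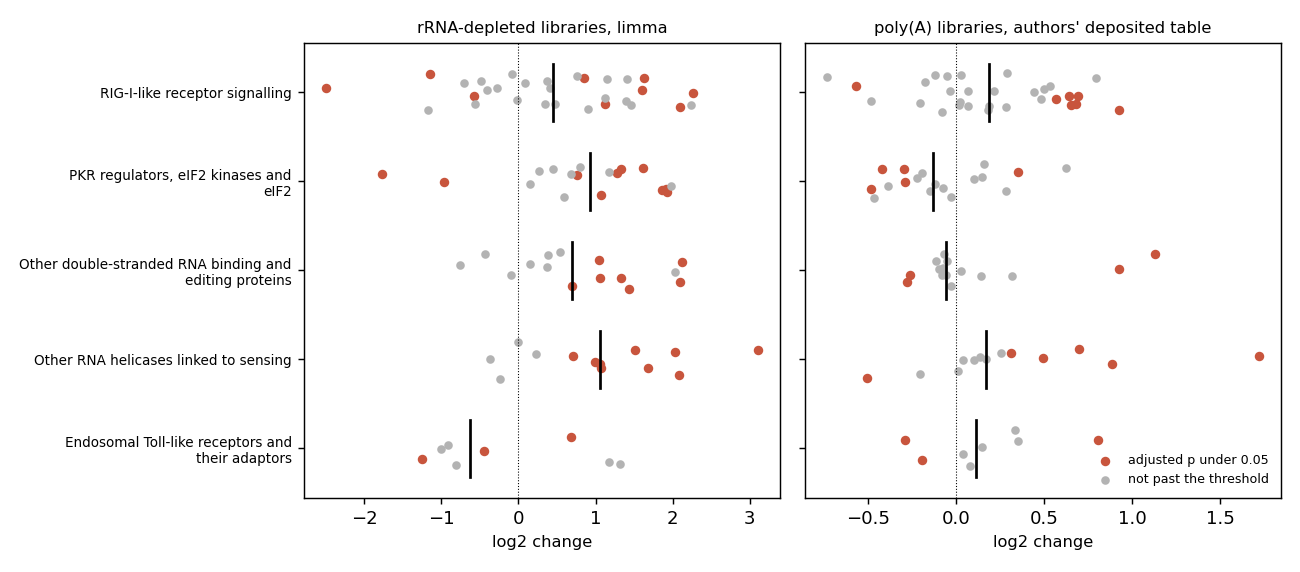
Log2 change of each tested gene of 5 related lists, in the rRNA-depleted libraries by limma (left) and in the authors' deposited table for the poly(A) libraries (right); red points have an adjusted p under 0.05, grey points do not, and black lines are medians. The helicases lie mostly to the right of 0 on the left, with a median of 1.06, and the PKR list has medians of 0.93 and -0.13.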

How the data were processed

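Per the submitters' processing notes, Trimmomatic, STAR, DESeq2 and hg38 were used. Counting tool, annotation and strand setting are not given in the sources used here. The authors deposited TPM per gene of the rRNA-depleted libraries. Of the poly(A) libraries only a comparison is used here, as the authors deposited it: log2 fold change and standard error, Wald score, raw and adjusted p-value, and mean normalized count as a pooled signal. It was described, not retested. It does not name its numerator: positive was taken as higher in knockout, from the table's name and because 91.5% of 177 genes called in both types, each with an absolute log2 change of 1 or more, then shared their sign.

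Gene lengths came from GENCODE 29 (93.8% of identifiers matched). With them 90.9% of TPM values above 0 were whole reads to within 0.02 reads. For 1446 genes, IFIH1 and ADAR among them, a length was fitted that made reads whole in all libraries. Limma 3.58.1 in R 4.3.3 (trend) was run on log2(TPM + 1) with Benjamini-Hochberg adjustment over all genes, after a test on simulated data. Other steps used Python 3.11.15, pandas 2.3.3 and matplotlib 3.10.9.

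The members and lists were chosen with earlier results of these data known. Genes were named by rule: the members, METTL3, and in each list the 2 highest and 2 lowest past the threshold with a mean of at least 5 TPM or 50 normalized counts; also the 3 nearest profiles and genes overlapping a member. Some genes past the threshold in both types are named in addition. Same-numbered libraries did not deviate together (correlation of deviations 0.020, -0.020 and 0.008). In libraries this shallow, counting error can hide a shared deviation, so whether the numbers pair them is not settled. The main fit used no replicate block.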

Additional observations from a re-analysis of the deposited data

How the results depend on the processing

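RIGI, between 2.86 and 4.10, and ADAR, between 1.82 and 2.33, kept their sign and an adjusted p under 0.05 in limma under all 20 alternatives. EIF2AK2 and MAVS kept theirs under 19 each: EIF2AK2 had -0.35 with the repeated-word trend removed and MAVS -0.039 with the GC and repeated-word trends removed, leaving 1 member lower in each case. The cause was not tested. IFIH1 passed with voom on recovered reads (2.40, adjusted p 0.00112) and with the replicate block over 6 separate libraries (2.23, adjusted p 0.0207), but not over the same 6 libraries without the block (2.23, adjusted p 0.0840). The block changed no other member's call and moved the calls over all genes to 4037 higher and 2000 lower. With 1 library left out the log2 change ranged from 3.24 to 3.98 for RIGI, 1.02 to 2.77 for IFIH1, 1.96 to 2.30 for ADAR, -1.10 to -0.98 for EIF2AK2 and -1.40 to -1.30 for MAVS.

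Over all genes, against 3382 higher and 1838 lower, leaving out 1 library gave 1000 to 3343 higher and 1027 to 1842 lower, the lowest of both without knockout-labelled library 3, which leaves that label with 1 sample assumed to vary like the others. An adjusted p under 0.01 gave 1401 and 841, thinning of reads 2076 higher, voom 3532 lower, and removal of the GC and repeated-word trends 1154 lower. Calls were 50.7% higher with 75th percentile scaling, 52.4% with voom and 49.3% without knockout-labelled library 3, but 71.6% with the GC trend removed, 72.1% with both trends removed and 70.8% without wild-type library 1 or 3. In the authors' deposited table a required absolute log2 value of 1 left 3 of the 4 members called. Depth limits IFIH1, DHX58 and TLR3, and the wild-type level of RIGI.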

Other observations

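The letters GGACT, the core most often methylated by METTL3, occur 3 times in the longest RIGI transcript (0.689 per kb), 5 times in that of EIF2AK2 (0.498 per kb) and 8 times in that of MAVS (0.683 per kb). The longest transcripts of ADAR, IFIH1, DHX58 and TLR3 hold 0.984, 1.67, 1.53 and 0.665 per kb. The median over 9867 protein-coding genes with a mean of at least 5 TPM was 0.921 per kb. EIF2AK2 stood at the 20.2 and IFIH1 at the 85.8 percentile of these genes, so members that rose in the authors' deposited table lie on both sides of the median. The count shows letters in a sequence, not methylation, which these data do not measure.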
